A study of Mus musculus with 9 samples.

Results

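The comparison set the cochleae of 15-month-old calorie-restricted mice (CR) against those of 4-month-old control mice (YC). Its members were the 3 CR and 3 YC arrays, 6 of the 9 arrays of the series, taken by their labels, with every probe set measured on them. All mice were male C57BL/6. Mice of the YC group were fed 84 kcal per week and were taken at 4 months. Mice of the CR group were fed 62 kcal per week, a reduction of 26%, from 2 months of age until they were taken at 15 months. The remaining 3 arrays carried 15-month-old controls fed 84 kcal per week (MC), and their values are given only beside those of the comparison. Each sample pooled 4 cochleae of 2 mice, so each group is 3 pools and 6 animals, and p-values measure the spread between pools. Age and diet differ together between CR and YC, so the part of each in a difference cannot be told apart. The submitters described comparisons of YC with MC and of MC with CR, and not this one.

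The cochlea is the spiral organ of hearing in the temporal bone. Hair cells on the organ of Corti turn sound into electrical signals and pass them to spiral ganglion neurons, supporting cells hold them in place, and fibrocytes of the spiral ligament and cells of the stria vascularis recycle potassium to keep up the voltage that drives hearing. C57BL/6 mice lose hearing with age, and calorie restriction slows many changes of ageing in rodents. A dissected cochlea can also carry bone, marrow, blood, fat, the muscle attached to the bone and a stump of the eighth nerve or brainstem. In such bulk RNA, fewer cells of a type and less RNA per cell cannot be told apart.

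The 3 CR arrays were lower than all 3 YC arrays in most genes of the contractile apparatus of skeletal muscle, led by the fast myosin heavy chain Myh2 at 8.52-fold. Most measured fibrocyte, supporting cell and neuronal genes had a higher mean in CR. All CR values lay above all YC values in 12 of 26, 9 of 23 and 11 of 41 of them, against 10.9% of all genes. The fibrocyte and supporting cell lists share members, among them Gjb2 and Gjb6. Leading examples were Sparcl1 at 2.34-fold, Gjb6 at 2.47-fold and Snap25 at 3.05-fold. None of these differences passed the adjusted test with all 3 YC arrays: of 27022 probe sets, 0 were called (0% of those tested, limma, Benjamini-Hochberg adjusted p under 0.05), and the smallest adjusted p was 0.16. Without adjustment 2910 probe sets had p under 0.05, or 10.8% of those tested, 1407 of them higher (5.21%) and 1503 lower (5.56%) in CR.

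The young arrays differed among themselves, and the number of calls depended on YC replicate 1. The median signal of YC replicate 1 was 526.8, in the range of the CR arrays (535.2 to 626.6), whereas YC replicates 2 and 3 had medians of 1103.9 and 842.4. After quantile normalization YC replicate 1 correlated with the CR arrays at 0.883 to 0.896 and with YC replicates 2 and 3 at 0.678 and 0.832. YC replicates 2 and 3 were no closer pair, at 0.776. With the CR arrays YC replicate 3 correlated at 0.828 to 0.847 and YC replicate 2 at 0.661 to 0.702. Without YC replicate 1, 363 probe sets passed the adjusted test (1.34%), 144 higher (0.533%) and 219 lower (0.81%) in CR, and 193 of 13702 named genes did (1.41%), 79 higher (0.577%) and 114 lower (0.832%). Without MC replicate 2, which enters the fit only through the spread, 5 passed, all lower. On the 4 arrays of low median signal alone, which set the 3 CR pools against the single YC replicate 1, 3 probe sets passed (0.0111%) under the assumption that the lone array varies like the CR arrays, 1 of them of a named gene (0.0073%). In what follows each difference is a CR mean minus a YC mean of normalized log2(signal + 16), given as log2 units ± its standard error (SE) from the fit, and the difference against YC replicate 1 and against YC replicates 2 and 3 stands beside it where it matters. Differences against YC replicate 1 are the only ones within 1 class of array.

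Among 13702 named genes, each represented by its brightest probe set, the CR and YC values did not overlap in 2899 (21.2%): 1494 were higher in CR (10.9%) and 1405 lower (10.3%). The median difference over all these genes was 0.07 log2 units, against YC replicate 1 it was -0.04, and against YC replicates 2 and 3 it was 0.12. With each array centred on its median and no quantile normalization, the median over all genes became 0.44 and 73.3% of genes were higher in CR. The share was 54.8% with quantile normalization, where 45.2% were lower, so differences are read against the median of all genes. The spread between replicates was smallest in CR, where the median SD over probe sets was 0.21 log2 units, against 0.57 in YC and 0.44 in MC.

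The genes with the smallest p among those lower in CR were mostly genes of fast skeletal muscle fibres. Their 250 bases before the annotated start are shown for 4 of them, because these genes had low levels together in the same 3 arrays. The sequences are RefSeq's, read on the gene's own strand in build GRCm38.p6, and capitals mark each E-box (CANNTG, a palindromic motif that reads alike on both strands and that muscle regulatory factors of the MyoD family can bind). The muscle enolase Eno3 (chr11:70656926-70657175, plus strand) had 1 E-box, the fast troponin C gene Tnnc2 (chr2:164779735-164779984, minus strand) had 2, skeletal actin Acta1 (chr8:123894776-123895025, minus strand) had 2 and Myh2 (chr11:67170777-67171026, plus strand) had 0.
Eno3: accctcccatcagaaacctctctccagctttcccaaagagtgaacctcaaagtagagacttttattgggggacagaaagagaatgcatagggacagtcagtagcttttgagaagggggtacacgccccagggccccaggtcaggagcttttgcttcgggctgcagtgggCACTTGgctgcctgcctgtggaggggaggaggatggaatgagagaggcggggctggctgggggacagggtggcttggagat
Tnnc2: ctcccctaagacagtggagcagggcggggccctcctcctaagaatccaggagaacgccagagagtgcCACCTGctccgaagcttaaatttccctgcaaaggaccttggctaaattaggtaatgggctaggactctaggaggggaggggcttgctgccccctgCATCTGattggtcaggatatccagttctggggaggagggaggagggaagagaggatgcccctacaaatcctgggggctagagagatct
Acta1: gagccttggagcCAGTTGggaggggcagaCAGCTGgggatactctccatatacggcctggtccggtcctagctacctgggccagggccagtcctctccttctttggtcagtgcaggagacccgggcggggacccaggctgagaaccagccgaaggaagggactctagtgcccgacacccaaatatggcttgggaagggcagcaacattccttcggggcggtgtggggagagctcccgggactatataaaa
Myh2: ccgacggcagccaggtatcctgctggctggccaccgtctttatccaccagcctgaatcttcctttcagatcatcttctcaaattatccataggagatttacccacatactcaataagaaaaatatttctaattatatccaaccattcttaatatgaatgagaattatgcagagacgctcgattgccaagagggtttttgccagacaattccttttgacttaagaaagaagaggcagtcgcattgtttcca
An E-box stood in 66.2% of all 32851 windows of this length, so a match is common. It stood in 32 of the 40 windows (80%) of the 31 sarcomere genes that the promoter table holds.

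Eno3, which makes the muscle form of the glycolytic enzyme enolase, had the smallest p of all named genes. Its levels were 13.92, 13.46 and 13.25 in the CR arrays and 15.15, 15.73 and 15.87 in the YC arrays. The groups did not overlap, which was required of the leading genes. Every CR array lay more than 1 log2 unit below the lowest YC array. The difference was -2.04 ± 0.28 log2 units, 4.12-fold, with an adjusted p of 0.16 by limma. Against YC replicate 1 it was -1.61 and against YC replicates 2 and 3 it was -2.26.

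Myh2, the myosin heavy chain of fast oxidative fibres, had the widest gap of the leading genes. It stood at 11.80, 10.80 and 10.80 in the CR arrays and at 14.17, 14.86 and 13.64 in the YC arrays. The difference of -3.09 ± 0.43 (8.52-fold, adjusted p = 0.16) was nearly the same against YC replicate 1 (-3.04) as against YC replicates 2 and 3 (-3.11). Among the other fast myosins, Myh4 stood at 15.32, 14.61 and 14.45 in CR and at 15.75, 16.50 and 17.00 in YC, and Myh1 differed by -1.23 ± 0.28. Fast myosin genes are near-identical in sequence, so their probe sets may share targets. The slow myosin Myh7 had 6.33, 6.37 and 8.51 in CR and 10.85, 7.64 and 9.93 in YC, so that the groups overlapped. Myh1, Myh4 and Myh7 were chosen after their values were seen.

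The calcium switch of the thin filament showed the same order of arrays. Tnnc2, the calcium-binding subunit of fast troponin, had 15.76, 15.46 and 15.26 in CR and 16.58, 17.29 and 17.25 in YC, a difference of -1.55 ± 0.24. Tnni2, its inhibitory subunit, differed by -1.82 ± 0.29, and Acta1, the actin of the thin filament, by -1.59 ± 0.25. The 3 CR values lay below the 3 YC values in each of these 3 genes, which was required of the leading genes. In each of them YC replicate 1 was the lowest of the YC arrays. The slow troponins, chosen after their values were seen, gave wider errors. Tnni1 differed by -1.25 ± 0.91 and Tnnt1 by -1.06 ± 0.86, and both overlapped between the groups. Tnnc1, the slow troponin C gene, differed by -1.27 ± 0.68 and did not overlap. It had 9.61, 9.60 and 9.39 in CR and 10.65, 10.85 and 10.89 in YC.

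Calcium handling and sarcomere assembly genes stood low in CR as well. Atp2a1, the calcium pump of the fast fibre sarcoplasmic reticulum, had 15.52, 14.93 and 14.91 in CR and 16.31, 16.47 and 17.17 in YC, a difference of -1.53 ± 0.25. Casq1, which stores calcium inside the reticulum, differed by -2.08 ± 0.34, and Tcap, which anchors titin at the Z-disc, by -2.18 ± 0.37. Actc1, the cardiac actin, had 10.47, 10.76 and 10.65 in CR and 12.58, 13.25 and 13.04 in YC, a difference of -2.33 ± 0.40 (adjusted p = 0.206). No CR array reached the lowest YC array in any of these 4 genes, which was required of the leading genes.

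Muscle energy genes completed the group. Mb, the oxygen store myoglobin, had 13.53, 13.56 and 13.88 in CR and 15.34, 16.42 and 15.82 in YC, a difference of -2.21 ± 0.34. Cox6a2, a muscle subunit of cytochrome c oxidase, differed by -1.96 ± 0.31, and Hspb6, a small heat shock protein of muscle, by -1.53 ± 0.25. The 12 leading lower genes had adjusted p between 0.16 and 0.206, differed by 2.88-fold to 8.52-fold, and 10 of them belong to one of the muscle lists. All 12 passed the adjusted test without YC replicate 1, with Eno3 at an adjusted p of 0.0288 and Myh2 at 0.0389. They were chosen by their p in the same arrays, so their passing adds no separate support. Of all 13702 genes, 0.832% passed as lower in that fit.

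**Figure D1:**
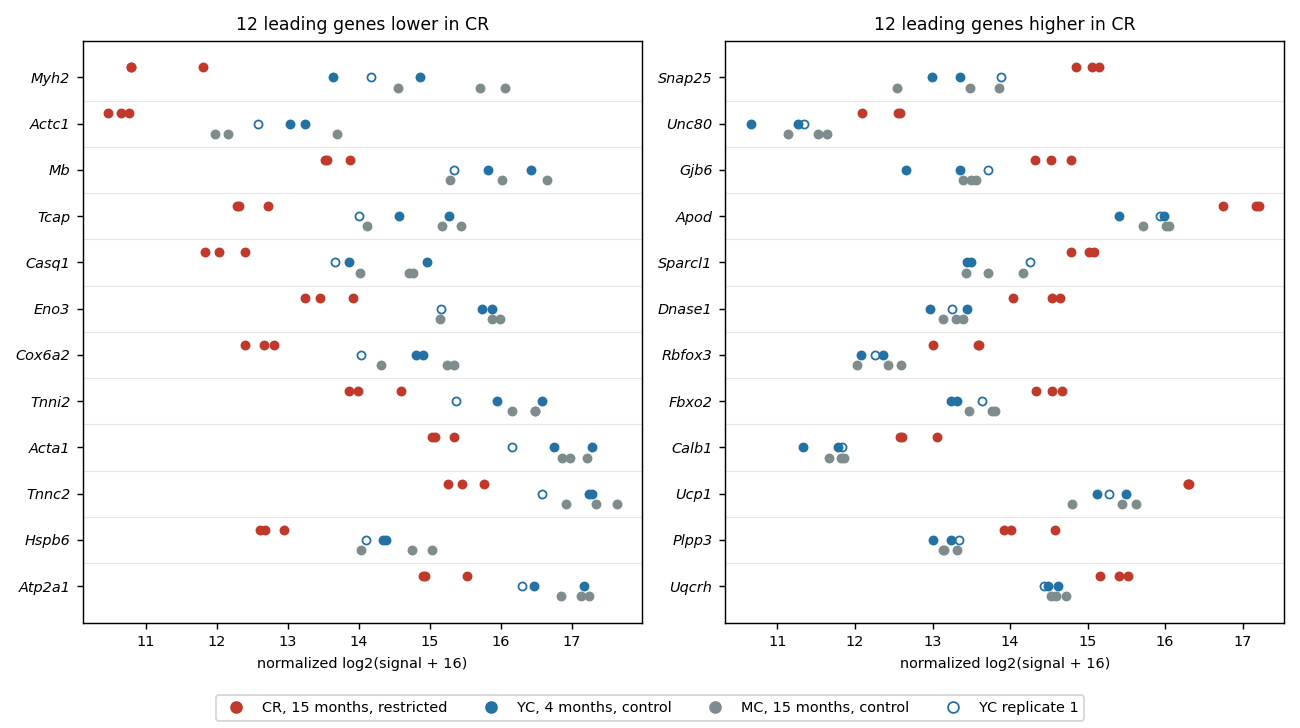
Normalized log2(signal + 16) of the 12 leading genes lower (left) and the 12 higher (right) in CR; each point is 1 array, with CR in red, YC in blue (YC replicate 1 open) and MC in grey. No CR point overlaps a YC point in these genes, which were chosen for that, and MC points lie on the side of the YC points.

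Of the 44 genes listed for the sarcomere and its calcium release, 43 passed the signal filter. Of these 41 were lower and 2 higher in CR, 0 passed the adjusted test, and in 35 all CR values lay below all YC values, against 10.3% of all genes. The median difference was -1.55 log2 units, against 0.07 over all genes. Against YC replicate 1 alone it was -1.09, with 42 of 43 genes lower, and against YC replicates 2 and 3 it was -1.78. Without YC replicate 1, 21 of the 43 passed, 20 of them lower, against 1.41% of all genes passing and 0.832% passing as lower. Casq2, the slow and cardiac calsequestrin, differed by 0.01 ± 0.38, and Nebl, a Z-disc protein named nebulette, stood higher by 1.66 ± 0.55. These 2 were the only measured genes of the list not lower in CR, and they were chosen after their values were seen.

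**Figure D2:**
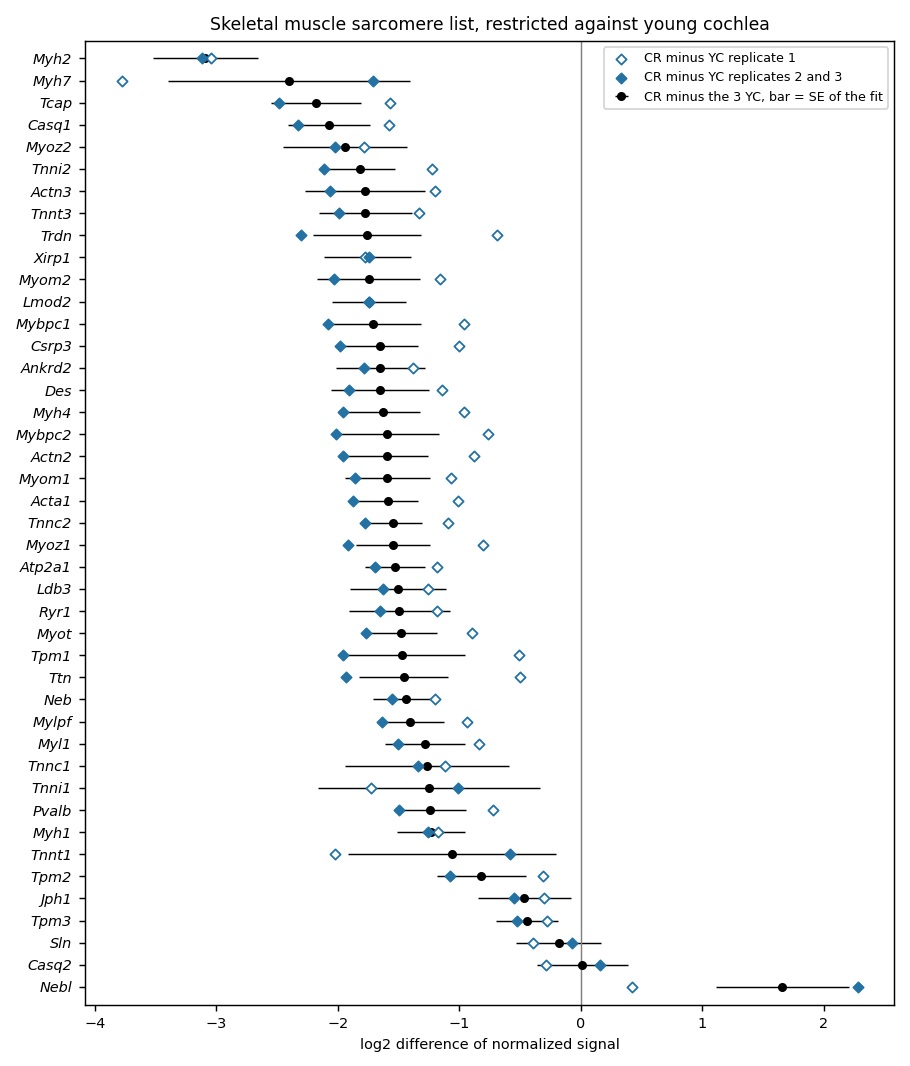
Log2 difference of CR minus YC for the 43 measured genes of the sarcomere list; black points are the difference from all 3 YC arrays with its SE as a bar, open diamonds the difference from YC replicate 1 and filled diamonds that from YC replicates 2 and 3. Most genes lie between -1 and -2, and for most the difference from YC replicate 1 is the smaller.

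The arrays differed among themselves in how much muscle signal they held. The median of the sarcomere list, as a deviation from each gene's mean over the 9 arrays, was -0.80, -1.27 and -1.37 in CR and -0.05, 0.33 and 0.86 in YC. In MC it was 0.82, 0.43 and 1.10. The summed linear signal of the list ran from 391000 to 551000 units in CR, from 887000 to 1790000 in YC, where replicate 1 was the lowest, and from 1290000 to 1920000 in MC. Skeletal muscle is no part of the cochlear duct, and the labels do not say how the tissue was cleaned of it. The muscle signal moved with the groups, and its part in the other differences was not tested.

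Of 22 genes listed for muscle metabolism, 18 were measured, 17 were lower and 1 higher in CR, and 0 passed the adjusted test. Their median difference was -1.12, with -0.81 against YC replicate 1 and -1.30 against YC replicates 2 and 3. The creatine kinase Ckm had 15.28, 14.51 and 14.77 in CR and 16.02, 15.95 and 17.10 in YC, a difference of -1.50 ± 0.30, and was chosen after its values were seen. The 2 groups did not overlap in this gene, and YC replicate 3 was the highest array of the 6.

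The glycolysis list, with 26 measured genes, had 13 higher and 13 lower in CR and a median of -0.01. Within it some isoforms known from muscle stood low, with Pgam2, the muscle phosphoglycerate mutase, at -1.93 ± 0.40, Pygm, the muscle glycogen phosphorylase, at -1.75 ± 0.38, and Pfkm, the muscle phosphofructokinase, at -1.16. Some forms known from other tissues stood on the other side, with Aldoc, the brain aldolase, at 1.20 ± 0.28, Pfkl, the liver phosphofructokinase, at 1.11, Pfkp at 0.68 and the neuronal enolase Eno2 at 0.67. These 7 examples were not a list fixed for isoforms, the other members were not sorted in this way, and none of the 7 passed the adjusted test. Pgam2, Pygm, Pfkm, Pfkl, Pfkp and Eno2 were chosen after their values were seen.

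The leading genes higher in CR were of several kinds. Apod, a secreted lipid carrier, had 16.74, 17.21 and 17.17 in CR and 15.93, 15.98 and 15.41 in YC. The difference was 1.27 ± 0.20 (2.41-fold, adjusted p = 0.16), and it was of like size against YC replicate 1 (1.11) and against YC replicates 2 and 3 (1.35). Fbxo2, which binds glycoproteins for degradation and is abundant in the inner ear, had 14.33, 14.54 and 14.67 in CR and 13.64, 13.23 and 13.32 in YC, a difference of 1.12 ± 0.19. In both genes the lowest CR array stood above the highest YC array, which was required of the leading genes.

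Neuronal genes were among them. Snap25, a protein of synaptic vesicle fusion, had 14.85, 15.06 and 15.15 in CR and 13.89, 13.00 and 13.35 in YC, a difference of 1.61 ± 0.32 (3.05-fold, adjusted p = 0.302). Rbfox3, the nuclear splicing factor known as NeuN, differed by 1.16 ± 0.24, the channel subunit Unc80 by 1.32 ± 0.28 and the calcium buffer Calb1 by 1.10 ± 0.24. The groups did not overlap in any of the 4, which was required of the leading genes. Against YC replicate 1 the differences were 1.13, 1.14, 1.07 and 0.92 in the same order.

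Genes of other roles filled the rest of the 12. Dnase1, a secreted nuclease, differed by 1.19 ± 0.21, Plpp3, a lipid phosphatase, by 0.98 ± 0.21, and Uqcrh, a subunit of respiratory complex III, by 0.84 ± 0.16. Ucp1, the uncoupling protein that marks brown fat, had 16.29, 16.30 and 16.29 in CR and 15.27, 15.12 and 15.50 in YC, a difference of 0.999 ± 0.21. The CR arrays were close to one another in Ucp1, and all stood above the YC arrays, which was required of the leading genes. Of the 12 leading higher genes, 6 passed the adjusted test without YC replicate 1, where 0.577% of all genes passed as higher. These 12 too were chosen by their p in the same arrays, so the count adds no separate support.

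Fibrocytes of the spiral ligament and limbus form the route by which potassium returns to the stria. All 26 genes listed for them were measured, 24 were higher and 2 lower in CR, 0 passed the adjusted test, and 12 had no overlap between the groups (background 10.9%). The median difference was 0.66, with 0.33 against YC replicate 1 and 0.84 against YC replicates 2 and 3. Coch, an abundant matrix protein whose mutations cause deafness in humans, had 15.06, 15.79 and 15.84 in CR and 14.86, 14.62 and 14.05 in YC, a difference of 1.05 ± 0.26. Otos, the secreted fibrocyte protein otospiralin, had 15.31, 15.78 and 15.74 in CR and 15.03, 14.58 and 14.08 in YC, a difference of 1.04 ± 0.25. In both genes the groups did not overlap, but CR replicate 1 and YC replicate 1 lay close together.

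Gap junctions link fibrocytes with one another and, in another network, the supporting cells. Gjb6 encodes connexin 30, and its levels were 14.32, 14.78 and 14.53 in CR and 13.71, 13.36 and 12.65 in YC, a difference of 1.30 ± 0.25 (adjusted p = 0.274). Gjb2, connexin 26, had 13.82, 14.43 and 14.16 in CR and 13.35, 12.89 and 12.55 in YC, a difference of 1.21 ± 0.29. In both connexins YC replicate 1 was the highest YC array and stayed below every CR array. Without YC replicate 1, Gjb6 had an adjusted p of 0.0356 and Gjb2 of 0.0525.

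Supporting cell and tectorial membrane genes leaned the same way, with a wider dependence on the young array used. Of 30 listed, 23 were measured, 18 were higher and 5 lower in CR, 0 were called and 9 were higher without overlap (background 10.9%). The median was 0.62, but it was 0.14 against YC replicate 1 and 0.86 against YC replicates 2 and 3. Sparcl1, a secreted matrix protein of glia and supporting cells, had 14.78, 15.08 and 15.01 in CR and 14.26, 13.44 and 13.50 in YC, a difference of 1.22 ± 0.26. Tectb, a protein of the tectorial membrane, differed by -0.39, so not all markers of these cells were higher.

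The stria vascularis list had 19 of 30 genes measured, with 16 higher and 3 lower in CR, 0 called and 6 higher without overlap (background 10.9%). Its median was 0.44, with 0.24 against YC replicate 1 and 0.88 against YC replicates 2 and 3. Dct, a melanin enzyme of intermediate cells, had 12.73, 13.40 and 13.17 in CR and 12.21, 12.32 and 11.83 in YC, a difference of 0.98 ± 0.25. Kcnj10, the potassium channel that sets the voltage of the stria, had 11.12, 11.08 and 11.07 in CR and 10.95, 9.28 and 9.82 in YC, a difference of 1.07 ± 0.42. The CR arrays were close to one another in Kcnj10, and YC replicate 1 stood only 0.14 below their mean. Kcnq1, the channel that releases potassium from marginal cells, overlapped between the groups at 1.41 ± 0.65.

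Many markers of the hair cells were dim or not named on the array. Of 39 genes listed, 27 were named on the array and 14 passed the signal filter. Of these 5 were higher and 9 lower in CR, and 0 were called. The defining markers Slc26a5 (prestin) and Pou4f3 were below the filter, and Ocm was not named on the array. The median of the 14 was -0.33 with all YC arrays and 0.02 against YC replicate 1, so its sign depended on that array. Otof, needed for vesicle release by inner hair cells, differed by -0.46, and the hair bundle motor Myo7a by 0.02. The 2 members with the smallest p are made in other cells too: Pvalb, also a protein of fast muscle, at -1.24 ± 0.30, and Calb2, also in neurons, at 1.40 ± 0.34.

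Genes of spiral ganglion and other neurons were higher in CR against both kinds of young array. Of 44 listed, 41 were measured, 36 were higher and 5 lower, 0 were called and 11 were higher without overlap (background 10.9%). The median was 0.47, with 0.49 against YC replicate 1 (38 of 41 higher) and 0.39 against YC replicates 2 and 3. As deviations from the mean of 9 arrays, the list median was 0.21, 0.25 and 0.38 in CR and -0.21, -0.42 and -0.29 in YC. The groups did not overlap on this measure. The neurofilament Nefl, chosen after its values were seen, overlapped at 0.31 ± 0.22, and peripherin, Prph, of the type II ganglion neurons, differed by -0.16 ± 0.35.

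Brain genes stood higher in CR beside them. The list for cerebellum and brainstem had 29 of 36 genes measured, 22 higher and 7 lower, 0 called and a median of 0.56, with 0.55 against YC replicate 1. Without overlap 11 were higher and 3 lower, against 10.9% and 10.3% of all genes. Zic1, a transcription factor of cerebellar granule cells, had 14.34, 12.94 and 12.89 in CR and 12.67, 11.03 and 11.64 in YC. Car8, a protein of Purkinje cells, had 12.94, 11.94 and 11.56 in CR and 11.49, 9.94 and 10.54 in YC, a difference of 1.49 ± 0.46, but its 2 other probe sets ran from -0.99 to 0.63. CR replicate 1 was the highest array in both genes and YC replicate 1 the highest of the young arrays. The kinase gene Camk2a went the other way at -0.67. The summed signal of the brain list overlapped between the groups, at 128000 to 212000 units in CR and 119000 to 176000 in YC.

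Central myelin followed, with 14 of 20 genes measured, 10 higher and 4 lower, 0 called, 7 higher without overlap (background 10.9%) and a median of 0.47. Mobp, made by oligodendrocytes, had 12.64, 12.29 and 12.50 in CR and 11.78, 10.80 and 11.19 in YC, a difference of 1.22 ± 0.36. The list for Schwann cells, which myelinate the peripheral part of the nerve, had 7 of 11 genes higher and a median of 0.11, near the 0.07 of all genes. The oligodendrocyte marker Mog was below the filter. The part of brain tissue in the neuronal differences was not tested.

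**Figure D3:**
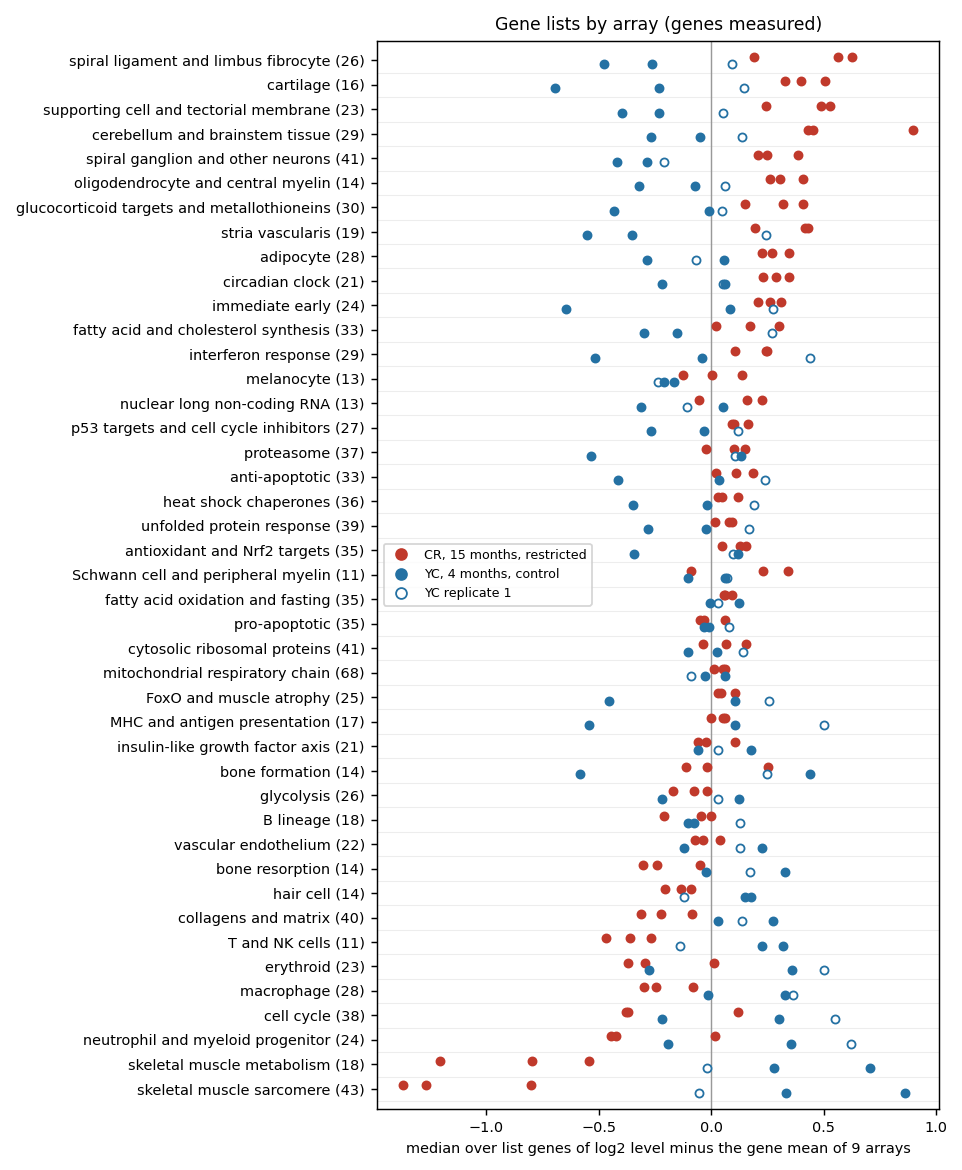
Median over the measured genes of each list (number in brackets) of the log2 level minus the gene's mean over 9 arrays; each point is 1 array, with CR in red, YC in blue and YC replicate 1 open. The muscle lists hold the lowest CR points, at -0.54 and below, and in most lists from the proteasome down to glycolysis the CR points lie among the YC points.

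Bone, cartilage and matrix genes did not move as one. The cartilage list had 14 of 16 measured genes higher, 2 lower and 0 called, with a median of 0.65 (0.22 against YC replicate 1). Epyc, a small proteoglycan of cartilage that the organ of Corti region also makes, had 12.66, 13.38 and 13.20 in CR and 12.40, 11.40 and 11.55 in YC, a difference of 1.30 ± 0.30. The list of collagens and matrix had 29 of 40 measured genes lower, 11 higher and 0 called, with 9 lower without overlap (background 10.3%). Its median of -0.34 turned to 0.07 when arrays were centred on their median, where all genes had 0.44. Col3a1, a collagen of soft connective tissue, had 13.23, 13.80 and 13.58 in CR and 14.58, 14.02 and 14.98 in YC, a difference of -0.99 ± 0.27. Col6a1 differed by -0.82 ± 0.20. The bone formation list was balanced, with 7 of 14 genes on each side.

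Most measured neutrophil, erythroid and macrophage genes were lower in CR, most of all against YC replicate 1, whereas the B lineage list was balanced at 9 higher and 9 lower with a median of -0.06. The neutrophil and myeloid progenitor list had 21 of 24 measured genes lower, 3 higher, 0 called and 9 lower without overlap (background 10.3%). Its median was -0.55, with -0.94 against YC replicate 1, where all 24 were lower, and -0.28 against YC replicates 2 and 3. Ngp, a granule protein of maturing neutrophils, had 14.82, 14.30 and 14.17 in CR and 15.58, 15.04 and 15.34 in YC, a difference of -0.89 ± 0.23. The groups did not overlap in Ngp, and YC replicate 1 was the highest array. The receptor Fpr2 differed by -1.03 ± 0.26.

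The erythroid list had 19 of 23 measured genes lower, 4 higher and 0 called, with a median of -0.37 that turned to 0.22 with arrays centred on their median, below the 0.44 of all genes there. Slc4a1, the anion exchanger of red cells, had 14.75, 13.92 and 14.11 in CR and 15.47, 15.18 and 15.13 in YC, a difference of -1.003 ± 0.23. The haemoglobin gene Hba-a1 went the other way at 0.71, and the chosen globin Hbb-bs was not named on the array. Macrophage genes were lower in 23 of 28, higher in 5, with 0 called and a median of -0.42 that became 0.05 with centred arrays. Adgre1, the surface protein F4/80, had 11.09, 11.19 and 10.89 in CR and 11.80, 12.30 and 12.05 in YC, a difference of -0.99 ± 0.23.

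Cell cycle genes followed the marrow lists. Of 38 measured genes 30 were lower and 8 higher in CR, 0 were called and 9 were lower without overlap (background 10.3%). The median was -0.44, but -0.87 against YC replicate 1, where all 38 were lower, and -0.24 against YC replicates 2 and 3. Cdca8, a mitotic spindle protein, had 11.41, 11.03 and 10.66 in CR and 12.13, 12.24 and 11.95 in YC, a difference of -1.07 ± 0.27. Mcm2, part of the replication helicase, differed by -1.004 ± 0.27. Summed over its genes, the cell cycle list gave 76000 to 112000 units in CR and 104000 to 147000 in YC, with YC replicate 1 the highest, and the summed neutrophil list gave 267000 to 362000 and 281000 to 493000. Dividing marrow cells express both lists, and the part of marrow in the cell cycle difference was not tested.

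Immune signalling lists gave mixed values. In the T and NK cell list, 9 of 11 measured genes were lower, with Klrd1, a receptor of NK cells, at -1.33 ± 0.41. Rsad2, an antiviral enzyme induced by interferon, had 13.57, 13.66 and 13.34 in CR and 14.43, 14.53 and 14.61 in YC, a difference of -0.996 ± 0.20 (adjusted p = 0.274). The interferon list around it had 19 of 29 genes higher and a median of 0.34, which was -0.25 against YC replicate 1. Rsad2 therefore stood on the other side of zero from the median of its own list, and that median took its sign from YC replicates 2 and 3.

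Most fat genes were higher in CR against both kinds of young array. Of 33 genes listed for adipocytes 28 were measured, 24 were higher and 4 lower, and 0 were called. Without overlap 10 were higher and 1 lower, against 10.9% and 10.3% of all genes. The median was 0.42, with 0.29 against YC replicate 1 (25 of 28 higher) and 0.49 against YC replicates 2 and 3. The summed signal of the list ran from 763000 to 863000 units in CR and from 589000 to 652000 in YC, without overlap. Gpd1, which makes the glycerol backbone of fat, had 14.32, 14.89 and 14.87 in CR and 13.81, 13.71 and 13.82 in YC, a difference of 0.91 ± 0.24, but its 2 other probe sets ran from -1.44 to 0.60. The hormone gene Adipoq, made by fat cells, differed by 0.32, and its lowest CR and highest YC arrays nearly met. Slc2a4, the insulin-responsive glucose transporter of fat and muscle, was the lowest member at -0.73.

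Restriction raises corticosterone in rodents, and a list of glucocorticoid targets and metallothioneins was examined for that reason. All 30 genes were measured, 22 were higher and 8 lower in CR and 0 were called. Without overlap 9 were higher and 3 lower, against 10.9% and 10.3% of all genes. The median was 0.46, with 0.32 against YC replicate 1 and 0.44 against YC replicates 2 and 3. Mt2, a metal-binding protein, had 14.85, 14.60 and 14.63 in CR and 14.34, 13.60 and 14.00 in YC, a difference of 0.71 ± 0.20. Fam107a, an actin-binding protein induced by stress hormone, had 14.58, 14.77 and 14.59 in CR and 13.98, 12.74 and 12.80 in YC, a difference of 1.48 ± 0.35. Klf15, a glucocorticoid-induced regulator of amino acid breakdown in muscle, differed by 1.19 ± 0.39. The groups did not overlap in these 3 genes. Angptl4, the lowest member of the list, went the other way at -0.83 ± 0.24, also without overlap.

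Clock genes were measured because restricted feeding can shift their rhythm, and the hour at which tissue was taken is not stated in the labels. Of 21 genes 16 were higher, 5 lower and 0 called, with a median of 0.40 (0.17 against YC replicate 1). Nr1d2, a repressor of the clock loop, had 13.32, 13.64 and 13.28 in CR and 13.05, 11.94 and 12.49 in YC, a difference of 0.92 ± 0.31. Npas2, an activator in the same loop, went the other way at -1.03 ± 0.48. The insulin-like growth factor list was balanced at 11 higher and 10 lower, with Igf1 at 0.27 ± 0.23 and overlapping.

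Respiratory chain genes stood near the median of all genes, and stress lists above it by amounts that depended on the young array. The heat shock list had a median of 0.18 (-0.16 against YC replicate 1), the unfolded protein response list 0.15 (-0.12) and the immediate early list 0.39 (-0.03). The respiratory chain list had 41 of 68 genes higher, 27 lower, 0 called and a median of 0.05. Without overlap 8 were higher and 3 lower, against 10.9% and 10.3% of all genes. Uqcrh and Cox4i1 (0.35 ± 0.14) were among the 8. Sirt3, the mitochondrial deacetylase, had 11.73, 11.68 and 11.72 in CR and 11.27, 11.09 and 11.47 in YC, a difference of 0.43 ± 0.28. Its target Idh2, which makes mitochondrial NADPH, had 12.37, 12.67 and 12.54 in CR and 12.85, 13.00 and 12.95 in YC, a difference of -0.41 ± 0.18. The values did not overlap in either gene, they lay on opposite sides of zero, and neither passed the adjusted test (0.511 and 0.462). Idh2 turned to 0.26 with arrays centred on their median, below the 0.44 of all genes.

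Apoptosis genes showed little difference as a group. The pro-apoptotic list had 21 of 35 genes higher, 14 lower, 0 called and a median of 0.09, and the anti-apoptotic list had 24 of 33 higher, 9 lower, 0 called and 0.19. Against YC replicate 1 the medians were -0.04 and -0.07. Bak1, which opens the outer mitochondrial membrane in dying cells, had 10.22, 9.69 and 9.67 in CR and 10.29, 8.31 and 9.88 in YC. Its groups overlapped at 0.37 ± 0.51, and the difference was -0.43 against YC replicate 1. Bcl2l11, known as Bim, overlapped too at -0.71 ± 0.34, and other probe sets of it gave both signs. Tnf was dim and stood at 7.91, 8.70 and 7.53 in CR and 9.93, 9.85 and 10.88 in YC, a difference of -2.17 ± 0.81 (adjusted p = 0.457).

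**Figure D4:**
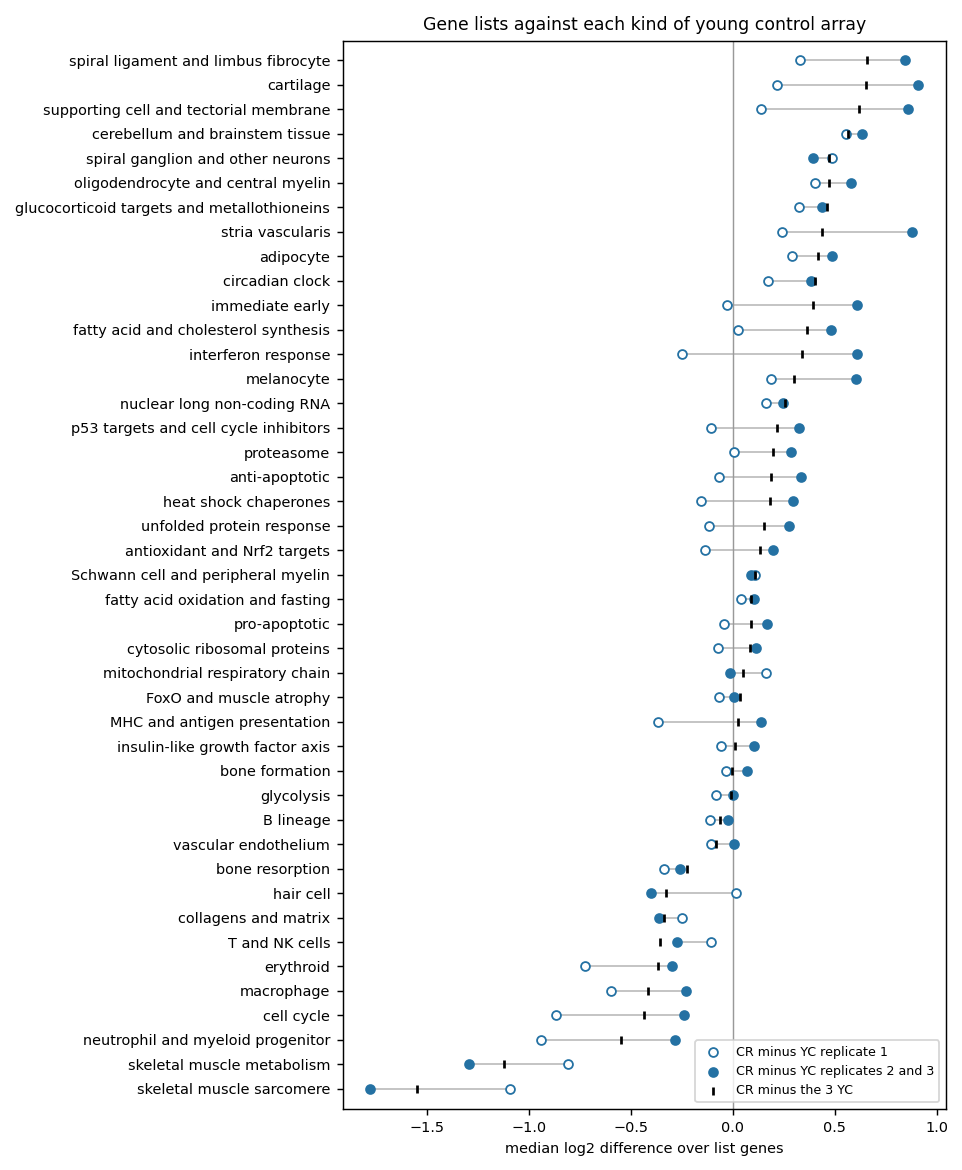
Median log2 difference over the measured genes of each list, from YC replicate 1 (open) and from YC replicates 2 and 3 (filled). The sarcomere list is below zero by both (-1.09 and -1.78) and the neuronal list above zero by both (0.49 and 0.39), while the interferon list lies on opposite sides (-0.25 and 0.61).

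Values of the older controls stand here beside those of the young. In the sarcomere list the median was -2.05 for CR minus MC and 0.40 for MC minus YC, and in the fibrocyte list it was 0.66 and 0.01. Of the 24 leading genes, 11 passed the adjusted test in CR minus MC, among them Myh2 at -4.31 and Eno3 at -2.13, where 19 of all 13702 genes passed (0.139%). These comparisons share arrays with CR minus YC, so their values are not independent of it, and CR and MC lie wholly in different array classes, so diet and array class cannot be told apart there.

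Slc6a2, the noradrenaline transporter of sympathetic nerve endings, differed by a size that depended on 1 young array, and was chosen after its values were seen. It had 9.35, 9.76 and 9.41 in CR and 12.52, 10.18 and 10.46 in YC. The CR arrays lay below all YC arrays, and the size of the difference came mostly from YC replicate 1. With all YC arrays it was -1.55 ± 1.01 (adjusted p = 0.514). On the 4 low-signal arrays it was -3.01, and the adjusted p of 0.0329 there takes the spread from the CR arrays alone (SD 0.22), although the YC arrays spread more widely in this gene (SD 1.28).

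Against their defining markers, the samples held cochlear tissue, with some of the hair cell markers below the filter. Fibrocyte markers Coch, Otos and Otor and ganglion markers Nefl, Prph, Tubb3 and Gata3 passed the signal filter, as did 4 of the 5 supporting cell markers and 3 of the 5 strial ones. Tecta, Kcne1 and Tyrp1 were below it. Of the 5 hair cell markers, Myo7a and Otof passed, Slc26a5 and Pou4f3 were below the filter and Ocm was not named on the array. All 4 muscle markers and 5 of the 6 brain markers passed as well.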

How the data were processed

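Cochlear RNA of 9 pools was hybridised to 1-colour arrays, per the labels. The authors deposited a table of linear signal intensity for 45037 probe sets, made with GCOS 1.3 per the submitters' processing notes. How signals were computed, scaled and called present is not stated in the labels. Array means agreed after trimming (1494 to 1496) but medians differed from 526.8 to 1103.9, so intensity was taken as log2(signal + 16) and quantile normalized over the 9 arrays. The pseudocount makes differences of dim features too small.

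The dimmest were left out by a filter at percentile 40 of the mean log2 signal, which kept 27022. Means of the 3 groups were fitted to all 9 arrays with lmFit and a trended eBayes (limma 3.58.1, R 4.3.3), with the contrast CR minus YC, a two-sided test and Benjamini-Hochberg adjustment over all kept probe sets, called at an adjusted p under 0.05. In the fit the MC arrays enter only the estimate of spread. They also took part in the normalization, the signal filter, the choice of brightest probe set and the gene means over 9 arrays. Precision is limited by the few arrays, with a median SE of 0.43. The procedure was tested on simulated data. Array class divides arrays at a median signal of 700, and no batch is labelled.

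The array annotation gave 1 symbol for 34945 probe sets, several for 932 and none for 9160, which are unnamed here. RefSeq (GRCm38.p6) matched 34741 of the single-gene probe sets. Promoter windows are RefSeq's of that build, and genes without one, such as Cox6a2, are named only. Each gene is its brightest single-gene probe set. Of the 24 leading genes, 8 had other probe sets past the filter and 0 had one of opposite sign. Of all 119 named genes, 53 had other probe sets and 14 had one of opposite sign. Genes were named as the 12 without overlap and with the smallest p in each direction, the 2 list members with the smallest p, a fixed set (Bak1, Coch, Otos, Sirt3 and others), and exceptions stated where they stand. Defining markers and other members of lists serve as examples of their list. Some lists share genes, so their counts are not independent. Epyc and Sox9 are in the supporting cell and cartilage lists, and Cldn11 is in the stria and central myelin lists. The comparison, the members and the gene lists were chosen with earlier results of these data known, so no p is given for a list. Of the 43 lists, those not described in the text are plotted by array. Alternatives were other pseudocounts, filters and normalizations, other fits, array class or median in the model, the replicate block and leaving out each array.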

Additional observations from a re-analysis of the deposited data

How the results depend on the processing

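Called probe sets numbered 0 with all arrays and 0 under the other settings, except 3 on the 4 low-signal arrays (2 higher and 1 lower in CR, with YC replicate 1 alone in its group and assumed to vary like the CR arrays) and a range of 0 to 363 when single arrays were left out (0 to 144 higher, 0 to 219 lower). The 363 came without YC replicate 1, and without MC replicate 2 there were 5, all lower, among them Eno3, Myh2, Myh1 and Hspb6 at an adjusted p of 0.0488. Probe sets with unadjusted p under 0.05 numbered 2910, and 677 when array class entered the model, 1124 when each array's median did, 1195 with array weights, 4482 without the signal filter and 1496 to 7320 with 1 array left out (7320 without YC replicate 1, 1577 without YC replicate 2 and 1496 to 1590 without a CR array). Same-numbered CR and YC arrays deviated together at r of 0.266, 0.157 and 0.041, not above 0.1 in every pair, so the labels' numbers were not taken as pairs. The replicate block gave 0 calls and 2710 probe sets at unadjusted p under 0.05, and not every array correlated best with its own number. Of 2726 values of single genes under the alternatives, 2672 kept direction and side of the threshold, 37 passed it, and 17 of 10 genes turned sign. With the mean of all probe sets Mmrn2 became 0.15, Pim3 -0.0019 and Ccng1 0.19. With centred arrays H2-Aa became 0.13, Cd74 0.29, Ccng1 0.13, Gstp1 0.25, Idh2 0.26 and Prph 0.23, against 0.44 for all genes. With array class in the model, and on the low-signal arrays alone, Norad became -0.022 and Bak1 -0.43. Bak1 became -0.33 with each array's median in the model and -0.012 in the table as deposited. With 1 array left out Bak1 ran from -0.22 (without YC replicate 2) to 0.77, and Prph from -0.54 to 0.12 (without YC replicate 3). The cause of these turns was not tested. Of 989 list medians, 150 moved by more than the spread between replicates. Dim genes, such as the hair cell markers below the filter, are limited by their signal over background.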
